A study of Mus musculus with 2 samples.

Results

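Zic1, Zic2, Zic4 and Zic5, 4 genes of the Zic zinc finger family, were found by symbol among the 55401 genes measured. They were followed in RNA of the embryonic pituitary with and without Dyrk2, a protein kinase. The genes were taken by symbol, but the family was selected on its FPKM ratio between these same libraries, so its levels and ratios are given as a description. The tissue was taken at stage E12.5, when Rathke's pouch, the ectodermal source of the anterior lobe, meets the floor of the diencephalon. The Dyrk2-KO sample came from embryos without functional Dyrk2 (Dyrk2-/-), and the WT sample from wild-type embryos of the same stage. Each genotype is represented by 1 polyA-selected library of total RNA. Nothing in the sources says how the allele was made, how many embryos were pooled or of which sex they were.

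Zic proteins are transcription factors with a row of C2H2 zinc fingers, close in sequence to those of the Gli proteins, the transcription factors of Hedgehog signalling. They bind DNA motifs that overlap those of Gli proteins and also act as cofactors of other factors. In vertebrate embryos they are best known from the dorsal neural tube, the border of the neural plate, the midline of the forebrain, the somites and parts of the head mesenchyme. Loss of ZIC2 causes holoprosencephaly in humans, a failure of the forebrain to divide at the midline.

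The genes lie as neighbouring pairs in the genome. Zic1 and Zic4 lie side by side on chromosome 9, read from opposite strands, with outermost annotated start sites 3.40 kb apart and gene bodies that overlap by 3398 bases. Zic2 and Zic5 form a second pair of opposite strands on chromosome 14, with 9.76 kb between their start sites and no overlap. The coding sequences are alike, so the 60 coding bases of Zic1 that the other 3 match best are shown first, from GENCODE M21 transcripts of build GRCm38. They code for part of the zinc fingers. Capitals mark bases that differ from Zic1.
Zic1: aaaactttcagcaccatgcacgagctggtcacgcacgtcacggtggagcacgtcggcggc
Zic2: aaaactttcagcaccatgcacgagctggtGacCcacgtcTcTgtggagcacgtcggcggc
Zic4: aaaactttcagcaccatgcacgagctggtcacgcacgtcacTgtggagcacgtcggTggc
Zic5: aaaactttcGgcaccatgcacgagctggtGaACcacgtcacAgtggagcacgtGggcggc
Against Zic1, the stretch differs at 2 bases in Zic4, 4 in Zic2 and 6 in Zic5. Even so, the longest run of identical bases on the same strand between transcripts of any pair of these genes was 42 bases, between Zic1 and Zic4, and 35 between Zic1 and Zic2. Zic1 and Zic4 share 60 exonic bases on opposite strands, 1.05% of the exonic length of Zic1. Zic4 also shares 468 exonic bases, 4.53% of its exonic length, with Gm37477 on the opposite strand. Gm37477 had 0 fragments in the Dyrk2-KO library and 3 in the WT library. No source used here says whether the authors' counting used the strand, so fragments in the shared bases could have counted for either gene.

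The levels are the deposited FPKM, a fragment count divided by exon length and by the library's total. Whole fragments could be recovered from them, with totals of 20114827 in the Dyrk2-KO library and 20045508 in the WT library. All intervals are exact 95% intervals from those fragments and cover counting error only, since PCR copies are not independent molecules and no replicate shows how far embryos differ. No test between genotypes was possible with 1 library each. Dyrk2 stood at 1.93 FPKM in the Dyrk2-KO library and 11.5 FPKM in the WT library, which is 16.8% of the WT level (14.6% to 19.2%). Markers of Rathke's pouch were abundant in both samples. All 10 listed were measured, summing to 711 FPKM in the Dyrk2-KO library and 783 FPKM in the WT library. Of these, 8 were lower in the Dyrk2-KO library and 2 higher. The pouch determinant Lhx3 was among the 2, at 85.9 FPKM (Dyrk2-KO) and 73.0 FPKM (WT). Six6 was among the 8, at 69.7 FPKM (Dyrk2-KO) and 95.3 FPKM (WT). With 0.5 FPKM added to both values, log2 ratios of the 10 ran from -0.60 to 0.23, with a median of -0.15. The median over all genes of at least 1 FPKM in a library was -0.02. The libraries also differed in the mix of sexes, with Xist, an RNA of the inactive X chromosome, at 14.8 FPKM in the Dyrk2-KO library and 74.98 FPKM in the WT library.

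All 4 genes had lower values in the Dyrk2-KO library, in a family selected on this ratio. Summed over the 4, the level was 2.57 FPKM in the Dyrk2-KO library and 7.28 FPKM in the WT library. In fragments this was 217 in the Dyrk2-KO library and 615 in the WT library, 35.2% of the WT share (29.9% to 41.4%). The counting interval of the ratio lay below 1 for Zic1 and Zic2, the 2 genes that reached 1 FPKM in a library. Among all 14000 genes that did so, 22.2% had an interval wholly below 1. Of the 2 weaker genes, Zic4 had an interval below 1 and Zic5 did not.

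**Figure D1:**
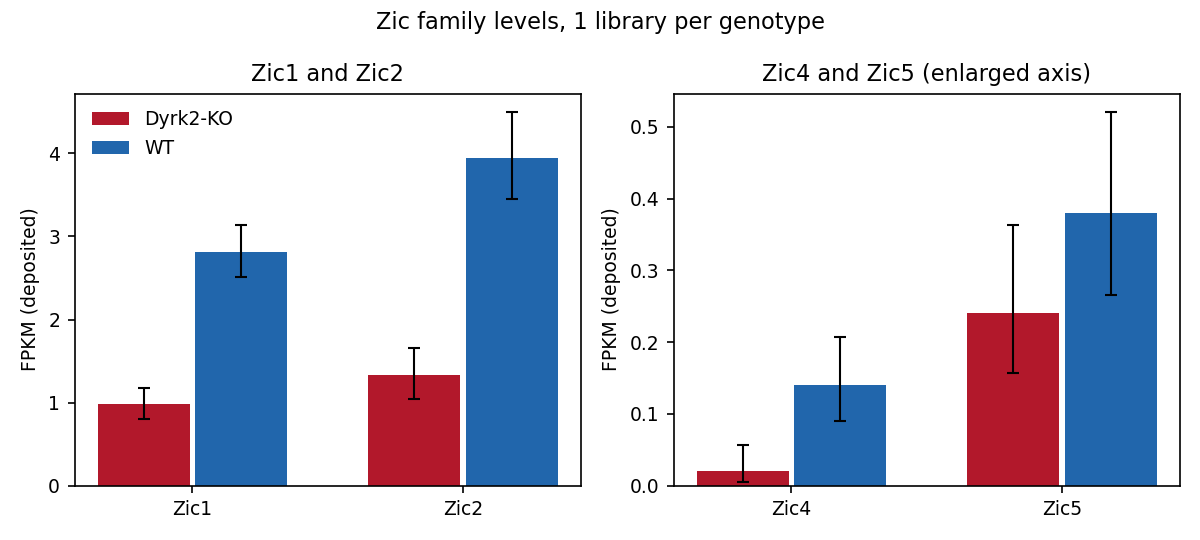
Deposited FPKM of Zic1, Zic2, Zic4 and Zic5 in the Dyrk2-KO (red) and WT (blue) libraries, 1 library each, with 95% Poisson intervals of counting error. Zic1 and Zic2 have intervals far apart between the libraries, and the scale for Zic4 and Zic5 is enlarged.

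Zic1 (ENSMUSG00000032368, chr9:91358058-91365810, minus strand, GRCm38) is the founding member, needed for cerebellar growth in the mouse. It measured 0.98 FPKM (0.805 to 1.18) from 112 fragments in the Dyrk2-KO library and 2.81 FPKM (2.51 to 3.14) from 321 fragments in the WT library. The Dyrk2-KO level was 34.9% of the WT level (27.8% to 43.2%), a 2.87-fold lower value. The counting intervals of the 2 libraries did not overlap, which describes a gene of a family selected on this ratio.

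Zic2 (ENSMUSG00000061524, chr14:122475435-122479852, plus strand) is the member tied to the forebrain midline. It measured 1.33 FPKM (1.05 to 1.66) from 77 fragments in the Dyrk2-KO library and 3.95 FPKM (3.45 to 4.50) from 228 fragments in the WT library. This was 33.7% of the WT level (25.6% to 43.8%), a 2.97-fold lower value and nearly the same ratio as that of Zic1. The ratio of Zic1 to Zic2 was 0.737 within the Dyrk2-KO library and 0.711 within the WT library, so the balance of these 2 genes was close in both.

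Zic4 and Zic5, the partners of Zic1 and Zic2 at their sites, were scarce. Zic4 (ENSMUSG00000036972, chr9:91362413-91389348, plus strand), which acts with Zic1 in the cerebellum of the mouse, measured 0.02 FPKM from 4 or 5 fragments in the Dyrk2-KO library and 0.14 FPKM from 28 to 30 fragments in the WT library. The rounding of the deposited values to 2 decimals leaves those counts open by a fragment or so. The ratio of 14.3% therefore carries a wide interval, 3.40% to 46.7%, that still lies below 1. Zic5 (ENSMUSG00000041703, chr14:122456795-122465677, minus strand), which promotes neural crest in frog and mouse embryos, measured 0.24 FPKM from 24 fragments in the Dyrk2-KO library and 0.38 FPKM from 37 fragments in the WT library. Its ratio of 63.2% had a counting interval from 37.0% to 111%, which includes equality.

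The order of the 4 genes by level was the same in both libraries. Zic2 came first, followed by Zic1, Zic5 and Zic4. In the Dyrk2-KO library the intervals of Zic2 and Zic1 overlapped, while in the WT library they were apart. Of the FPKM summed over the 4 genes, Zic2 made up 51.8% in the Dyrk2-KO library and 54.3% in the WT library, and Zic1 38.1% in the Dyrk2-KO library and 38.6% in the WT library. Zic5 made up 9.34% in the Dyrk2-KO library and 5.22% in the WT library. All are weakly expressed: Zic2, the highest of them, exceeded 9.51% of the 14000 genes in the Dyrk2-KO library and 30.3% of them in the WT library. In bulk tissue, fewer cells that express a Zic gene and less Zic RNA per cell cannot be told apart.

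To set the family against all genes, 0.5 FPKM was added to both values before the log2 ratio was taken, which draws weak genes towards 0. The 2 genes above 1 FPKM in a library had log2 ratios of -1.28 for Zic2 and -1.16 for Zic1. Zic2 and Zic1 were thus at least 2-fold lower on this scale, as were 1.89% of all 14000 genes, while 0.857% were at least 2-fold higher. Among the 3051 genes of similar level, 2 to 5 FPKM in the higher library, 3.24% were at least 2-fold lower. Only 1.23% of the 14000 genes had a lower ratio than Zic2 and 1.48% a lower ratio than Zic1. The median over all of them was -0.02. The 2 genes under the filter had log2 ratios of -0.30 for Zic4 and -0.25 for Zic5, where the added 0.5 FPKM exceeds the values themselves.

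**Figure D2:**
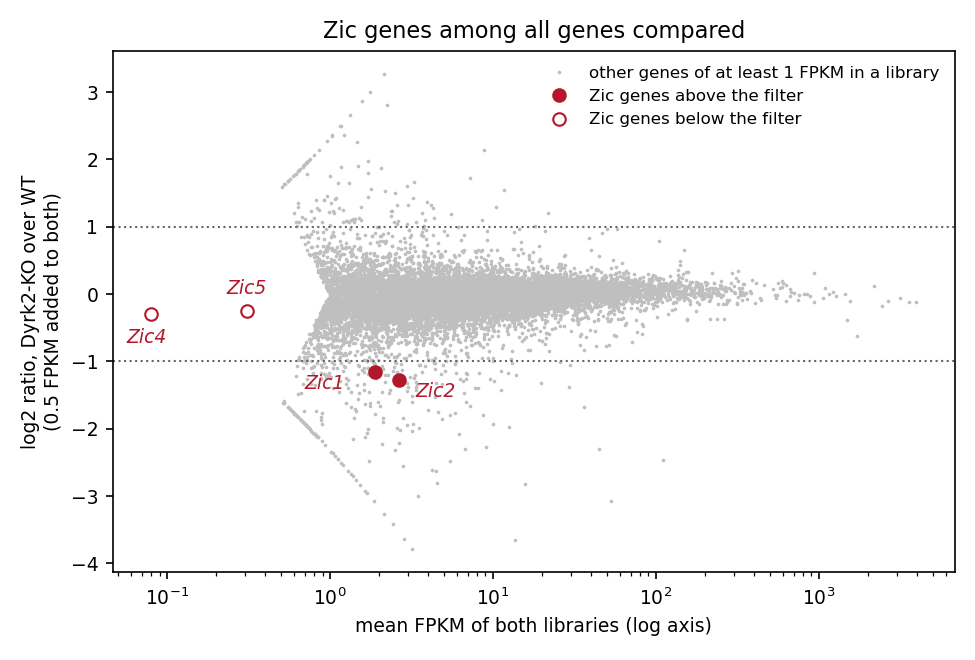
Log2 ratio of Dyrk2-KO over WT, with 0.5 FPKM added to both, against mean FPKM on a log axis, for the 14000 genes above 1 FPKM in a library (grey) and Zic1, Zic2, Zic4 and Zic5 (red, open where below that filter). Dotted lines mark 2-fold, and Zic1 and Zic2 lie below the lower line.

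The genes whose pair of values was nearest to that of a Zic gene were found by distance in log2(FPKM + 0.5) over these 2 libraries only. Nearest to Zic1 were Spaca9, Sez6l2 and Hcn3, with Spaca9 at 0.93 FPKM in the Dyrk2-KO library and 2.74 FPKM in the WT library. Nearest to Zic2 were Ntn1, which encodes the guidance cue netrin, at 1.41 FPKM (Dyrk2-KO) and 3.76 FPKM (WT), the integrin gene Itga8 at 1.24 FPKM (Dyrk2-KO) and 3.77 FPKM (WT), and Ifitm10.

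Other expressed genes around the Zic sites lay within 1.5-fold, as did most genes. Here and in the counts by fold that follow, 0.5 FPKM was added to both values, and on that scale 93.4% of the 14000 genes lay within 1.5-fold, 4.56% were lower by at least that factor and 2.06% higher. Within 500 kb of Zic2, 7 of 24 other annotated genes reached 1 FPKM in a library, and all 7 were within that limit, a share near that of all genes. The next expressed gene downstream, Pcca, which encodes a subunit of propionyl-CoA carboxylase, measured 6.99 FPKM in the Dyrk2-KO library and 6.35 FPKM in the WT library. On the other side, Clybl, a mitochondrial lyase gene, measured 6.64 FPKM in the Dyrk2-KO library and 5.94 FPKM in the WT library. The lowest of the 7, the non-coding A330035P11Rik, was at 79.4% of the WT level, and the highest, Clybl, at 112%. The others were Ubac2, Tm9sf2, Ggact and Tmtc4, the last at 85.6%. The non-coding gene 2610035F20Rik, whose gene body is separated from that of Zic2 by 235 bases and which is read away from it on the other strand, was at 0.02 FPKM, about 1 fragment, in each library. Around Zic1, the only other gene of at least 1 FPKM was the pseudogene Gm5620, at 1.62 FPKM in the Dyrk2-KO library and 1.41 FPKM in the WT library.

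RefSeq promoter sequences (build GRCm38.p6, from 250 bases before to 50 after a start site) were at hand for Zic1, Zic4 and Zic5. Those of Zic1 and Zic4 are shown because the genes are neighbours, share 60 exonic bases and were both low in the Dyrk2-KO library. The window of Zic1 is chr9:91365719-91366018 on the minus strand and that of Zic4 is chr9:91368722-91369021 on the plus strand. The Zic4 window lies downstream of the outermost Zic4 start site used above, at 91362413, and beyond the end of the Zic1 gene body, at 91365810. It thus belongs to another Zic4 start site, outside the overlap of the 2 gene bodies. Capitals mark GGGCGG, the core of a GC box, and CCAAT, on either strand.
Zic1 promoter: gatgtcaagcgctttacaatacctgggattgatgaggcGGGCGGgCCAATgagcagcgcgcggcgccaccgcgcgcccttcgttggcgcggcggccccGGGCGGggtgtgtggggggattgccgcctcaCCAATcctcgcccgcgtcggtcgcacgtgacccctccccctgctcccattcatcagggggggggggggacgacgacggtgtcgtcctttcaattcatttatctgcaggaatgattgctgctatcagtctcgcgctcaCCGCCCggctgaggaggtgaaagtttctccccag
Zic4 promoter: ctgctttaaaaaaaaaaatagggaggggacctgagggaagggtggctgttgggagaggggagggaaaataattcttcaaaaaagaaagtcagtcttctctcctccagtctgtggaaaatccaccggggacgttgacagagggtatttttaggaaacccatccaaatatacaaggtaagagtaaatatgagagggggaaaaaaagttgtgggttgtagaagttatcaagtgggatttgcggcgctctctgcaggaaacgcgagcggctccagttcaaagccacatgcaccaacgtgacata
The Zic1 window holds 3 GGGCGG matches and 2 CCAAT matches, none overlapping, and the Zic4 window holds neither. The Zic5 window has 1 GGGCGG match. Over all 32851 promoter windows, 35.7% hold GGGCGG and 37.4% hold CCAAT. Counted as CpG pairs, the Zic1 window has 31, more than 89.4% of all windows, against 15 for Zic5 and 8 for Zic4. Neither the Gli motif GACCACCCA, held by 0.253% of windows, nor the Zic motif CCTGCTGGG, held by 1.09%, is in any of the 3 windows on either strand, and none holds TATAAA, which 13.6% do. These are letters found in a window and not sites of binding.

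The nearest relatives of the family, the Gli and Glis genes, did not lie on one side of equality. Of 6 measured, 5 were above 1 FPKM in a library. Gli1, a readout of Hedgehog signalling, was the only one at least 1.5-fold lower, at 15.5 FPKM in the Dyrk2-KO library and 28.4 FPKM in the WT library, against 4.56% of all genes. Its counting interval, 51.3% to 58.1% of the WT level, lay above those of Zic1 and Zic2. Gli2 stood at 6.97 FPKM in the Dyrk2-KO library and 4.50 FPKM in the WT library, and Gli3, which yields the main repressor of the pathway, at 17.2 FPKM (Dyrk2-KO) and 11.4 FPKM (WT). These 2 were 1.55-fold and 1.51-fold higher in FPKM, just under 1.5-fold once 0.5 FPKM was added. Glis2 was nearly level, at 17.9 FPKM in the Dyrk2-KO library and 19.5 FPKM in the WT library. The median log2 ratio of the 5 was 0.25.

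**Figure D3:**
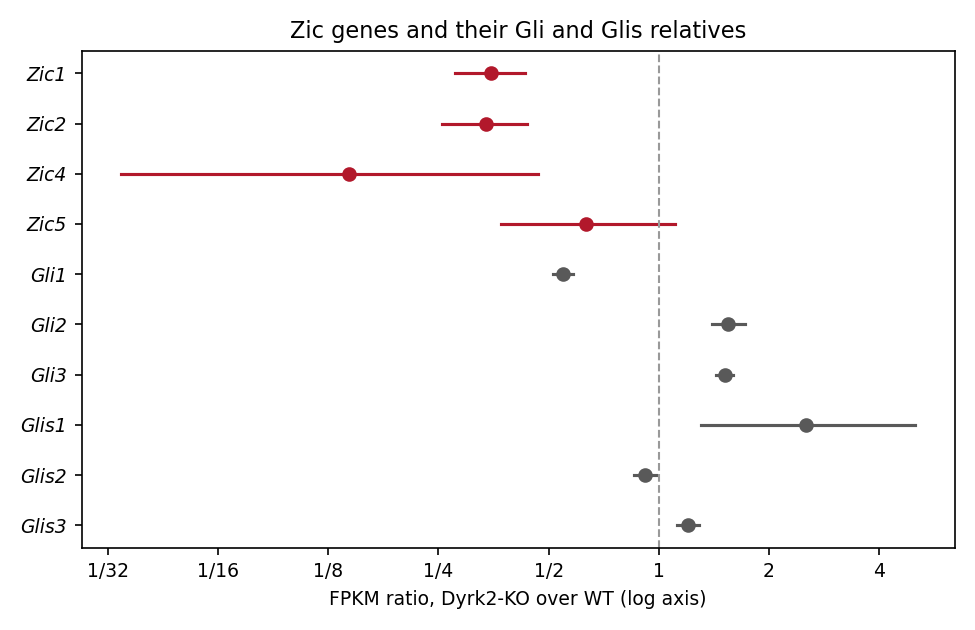
FPKM ratio of Dyrk2-KO over WT on a log axis with 95% counting intervals, for Zic1, Zic2, Zic4 and Zic5 (red) and the 6 Gli and Glis genes (grey). All 4 Zic ratios lie below 1, with the interval of Zic5 crossing it, while Gli2, Gli3, Glis1 and Glis3 lie above 1.

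Genes whose products are known to bind Zic proteins were all expressed and close to level. All 11 listed passed 1 FPKM and all 11 lay within 1.5-fold, against 93.4% of all genes, with a median log2 ratio of 0.13 and a range from -0.19 to 0.30. Rnf180, a ubiquitin ligase that binds Zic2 in the mouse, measured 2.41 FPKM in the Dyrk2-KO library and 2.83 FPKM in the WT library. Chd4 and Mbd3, of the NuRD chromatin complex, were at 110 and 133 FPKM in the Dyrk2-KO library and at 99.6 and 129 FPKM in the WT library. Parp1 was furthest from level, at 70.3 FPKM in the Dyrk2-KO library and 57.1 FPKM in the WT library.

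Reported target genes of Zic proteins gave little to read. Of 12 listed, 3 passed 1 FPKM and all 3 lay within 1.5-fold, again against 93.4%. Ephb1, an axon guidance receptor that Zic2 switches on in mouse retinal ganglion cells, measured 7.27 FPKM in the Dyrk2-KO library and 7.05 FPKM in the WT library. Apoe, a lipid carrier gene whose human promoter binds Zic proteins, measured 37.0 FPKM (Dyrk2-KO) and 43.2 FPKM (WT), and Snai2, a regulator of neural crest, 4.50 FPKM (Dyrk2-KO) and 3.36 FPKM (WT). Atoh1 and Myf5 were listed at 0 in both libraries.

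Other genes in which mutations cause holoprosencephaly lay on both sides of equality. Of 16 listed, 13 passed 1 FPKM. With 0.5 FPKM added, none was at least 1.5-fold lower, against 4.56% of all genes, and 2 were at least 1.5-fold higher, against 2.06%. The 2 were Boc, at 3.99 FPKM in the Dyrk2-KO library and 2.19 FPKM in the WT library, and Gas1, at 24.1 FPKM (Dyrk2-KO) and 14.5 FPKM (WT), both co-receptors for Hedgehog ligands. Six3, a forebrain regulator, stood at 42.5 FPKM in the Dyrk2-KO library and 35.9 FPKM in the WT library, and the ligand gene Shh at 2.67 FPKM (Dyrk2-KO) and 2.58 FPKM (WT). Of the 13, 10 were higher in the Dyrk2-KO library and 3 lower. The counting intervals of those 3 lay below equality, a share of the 13 near the 22.2% of all 14000 genes. Ptch1, the Hedgehog receptor, measured 19.8 FPKM in the Dyrk2-KO library and 28.4 FPKM in the WT library (67.4% to 72.2% of the WT level). The ligand gene Fgf8 was at 69.9% of the WT level (55.0% to 88.3%) and the Notch ligand gene Dll1 at 81.8% (75.8% to 88.1%). Gli2, described above, was 1.55-fold higher in FPKM and just under 1.5-fold with 0.5 FPKM added. The list median was 0.13.

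Markers of tissues that express Zic genes elsewhere in the embryo were then read in both libraries. Dorsal neural tube was nearly absent: of 9 markers only Msx1, which mesenchyme also expresses, passed 1 FPKM, and Wnt1, Wnt3a, Pax7 and Olig3 were listed at 0 in both. The roof plate factor Lmx1a was weak, at 0.29 FPKM in the Dyrk2-KO library and 0.78 FPKM in the WT library, with an interval of the ratio from 21.3% to 64.0%. Hypothalamic and infundibular markers were present, with 11 of 13 above 1 FPKM, summing to 221 FPKM in the Dyrk2-KO library and 248 FPKM in the WT library. Of those 11, 10 lay within 1.5-fold, against 93.4% of all genes, and the median log2 ratio was -0.09. It was below 0 for 7 of the 11 and above 0 for 4. Rax, a regulator of hypothalamus and eye, measured 13.3 FPKM (Dyrk2-KO) and 14.2 FPKM (WT). Six6, also on the pouch list and the most abundant here, measured 69.7 FPKM (Dyrk2-KO) and 95.3 FPKM (WT). That was 73.1% of the WT level (70.6% to 75.7%). Vax1, a regulator of the ventral forebrain and optic stalk, was higher, at 1.96 FPKM in the Dyrk2-KO library and 0.67 FPKM in the WT library. Fgf8, a signal of the infundibulum, was at 4.57 FPKM (Dyrk2-KO) and 6.54 FPKM (WT). Sim1, a regulator of hypothalamic neurons and under 1 FPKM, had 5 or 6 fragments in the Dyrk2-KO library and 89 or 90 in the WT library, 5.77% of the WT level (1.76% to 15.2%).

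Neural markers lay on both sides of equality. Of 9 genes of neural progenitors 6 passed 1 FPKM, with a median of 0.18. All 6 lay within 1.5-fold with 0.5 FPKM added, against 93.4% of all genes. Sox1, a marker of the early neural plate and tube, was at 10.5 FPKM in the Dyrk2-KO library and 7.60 FPKM in the WT library. Fabp7, a fatty acid-binding protein gene of radial glia, was the 1 below equality, at 1.47 FPKM in the Dyrk2-KO library and 2.35 FPKM in the WT library, 1.60-fold lower before the addition. Of 10 neuronal genes 9 passed, with a median of 0.26 but sums of 98.2 FPKM in the Dyrk2-KO library and 109 FPKM in the WT library, and Tubb3, the neuronal tubulin, measured 23.1 FPKM (Dyrk2-KO) and 15.9 FPKM (WT). The neurofilament gene Nefm was the 1 of these 9 at least 1.5-fold lower, against 4.56% of all genes. It measured 9.19 FPKM in the Dyrk2-KO library and 16.8 FPKM in the WT library. Nefl, also of the neurofilaments and the most abundant on the list, measured 34 FPKM (Dyrk2-KO) and 49.99 FPKM (WT), 64.5% to 71.7% of the WT level.

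Markers of general mesenchyme and of the meninges had the lowest medians of the lists with 3 or more members above 1 FPKM. Of 9 general markers all passed 1 FPKM, 4 were lower by at least 1.5-fold, against 4.56% of all genes, and 1 was higher by as much, against 2.06%, with a median log2 ratio of -0.56 and sums of 148 FPKM in the Dyrk2-KO library and 223 FPKM in the WT library. The log2 ratio was below 0 for 7 of the 9 and above 0 for 2, with the highest at 0.71. Among those below 0, Col1a1, a fibrillar collagen gene, measured 16.2 FPKM in the Dyrk2-KO library and 42.7 FPKM in the WT library. The mesenchymal regulator Twist1, also below 0, measured 6.84 FPKM (Dyrk2-KO) and 15.7 FPKM (WT). Among markers of the meninges, the membranes of the brain, 9 of 10 passed, with a median of -0.48. By at least 1.5-fold, 3 were lower and 1 higher, beside the same shares of all genes. The log2 ratio was below 0 for 7 of these 9 and above 0 for 2. Foxd1 was lowest, at 3.62 FPKM in the Dyrk2-KO library and 13.8 FPKM in the WT library. Dcn measured 1.88 FPKM (Dyrk2-KO) and 3.18 FPKM (WT). The 10 meningeal markers nonetheless summed to 329 FPKM in the Dyrk2-KO library and 261 FPKM in the WT library. That sum is carried by 2 genes of retinoic acid handling. Crabp2, a binding protein, measured 169 FPKM (Dyrk2-KO) and 135 FPKM (WT), and Aldh1a2, a retinoic acid-forming enzyme, 132 FPKM (Dyrk2-KO) and 76.0 FPKM (WT).

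Markers of frontonasal and periocular mesenchyme split widely. Of 9 markers 8 passed, 2 were lower by at least 1.5-fold, against 4.56% of all genes, and 3 higher, against 2.06%, with a median of -0.15 and sums of 97.1 FPKM in the Dyrk2-KO library and 104 FPKM in the WT library. Foxd1 was at 3.62 FPKM in the Dyrk2-KO library and 13.8 FPKM in the WT library, and Foxc2 at 3.81 FPKM (Dyrk2-KO) and 9.83 FPKM (WT), both forkhead factors. Foxd1 and Foxc1 are on this list and on that of the meninges, so the counts of these lists are not separate. Alx1, of the frontonasal mesenchyme, was at 4.29 FPKM in the Dyrk2-KO library and 0.18 FPKM in the WT library. Of 10 neural crest markers 7 passed and 1 was at least 1.5-fold lower, against 4.56% of all genes. That 1 was the neurotrophin receptor gene Ngfr, at 2.73 FPKM (Dyrk2-KO) and 6.88 FPKM (WT). The defining crest genes Sox10 and Foxd3 were at or under 0.10 FPKM in both libraries. The part of the tissue mix in the Zic values was not tested.

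**Figure D4:**
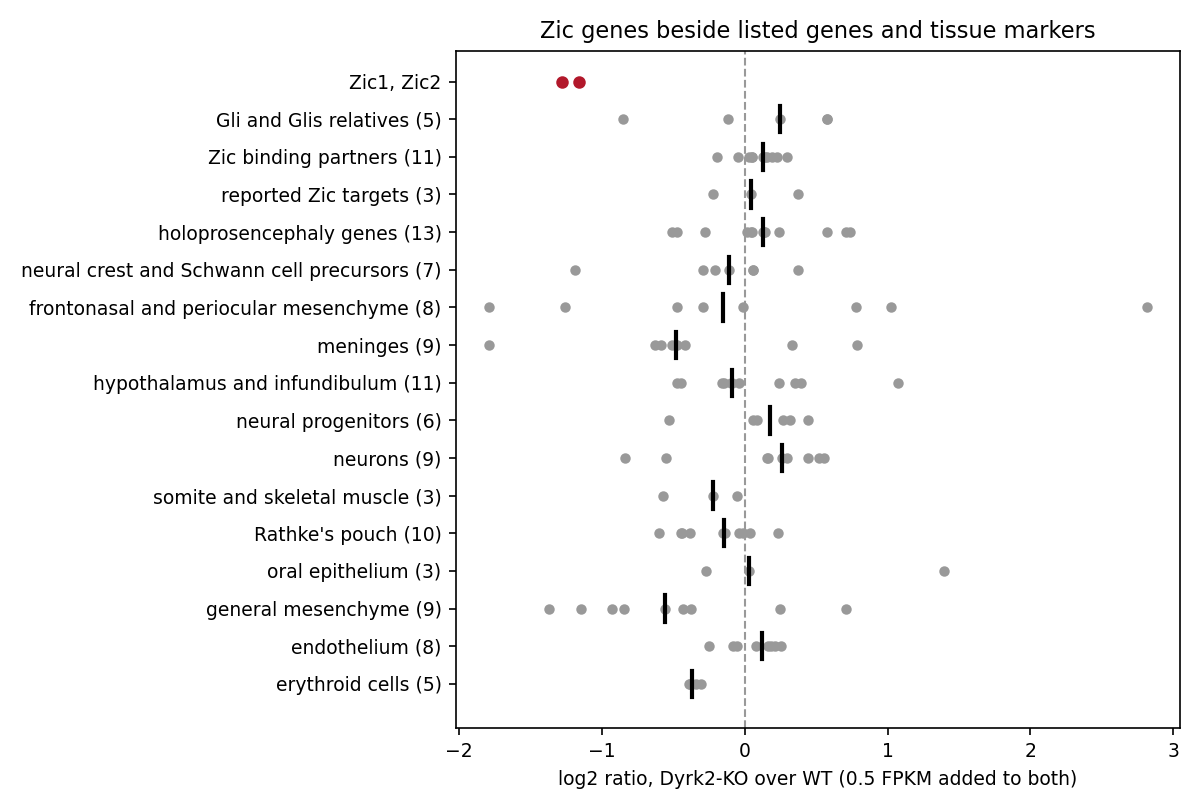
Log2 ratio of Dyrk2-KO over WT, with 0.5 FPKM added to both, for Zic1 and Zic2 (red) and for the members above 1 FPKM of each list (grey, number in parentheses, bar = median). Medians are lowest for general mesenchyme, at -0.56, and meninges, at -0.48.

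Further markers gauged other cells in the samples. Somite and muscle genes were scarce, with 3 of 7 above 1 FPKM and Pax7 and Myf5 at 0. Their sums were 9.28 FPKM in the Dyrk2-KO library and 10.7 FPKM in the WT library. All 3 above 1 FPKM lay within 1.5-fold with 0.5 FPKM added (median -0.22), against 93.4% of all genes. Meox1, of the somites, was 1.64-fold lower before the addition, at 1.70 FPKM in the Dyrk2-KO library and 2.78 FPKM in the WT library. Of 10 pouch markers 9 lay within 1.5-fold and 1 was at least 1.5-fold lower, against 93.4% and 4.56% of all genes, with a median of -0.15. Of 8 endothelial markers all 8 lay within 1.5-fold, against the same 93.4%, with a median of 0.12. Oral epithelium, with 3 of 6 above 1 FPKM, had a median of 0.03 and 1 member at least 2-fold higher, against 0.857% of all genes. That member was the keratin gene Krt15, at 1.55 FPKM in the Dyrk2-KO library and 0.28 FPKM in the WT library, a 5.54-fold higher value (2.77 to 12.1). Trp63, a regulator of basal epithelium under 1 FPKM, had 54 fragments in the Dyrk2-KO library and 3 or 4 in the WT library, a ratio of 16 with a counting interval from 4.96 to 89.7. Erythroid genes had a median of -0.37 over 5 members, none at least 1.5-fold lower, against 4.56% of all genes.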

How the data were processed

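The authors deposited 1 table per library with Ensembl gene identifiers, the summed exon length and FPKM to 2 decimals, per the file headers. The submitters' processing notes name HISAT2 2.0.1, cutadapt 1.9.1 and build GRCm38. Counting tool, strand setting and annotation release: not given in the sources used here. Symbols came from GENCODE M21 (55141 of 55401 identifiers matched), whose exon lengths equal the deposited ones for the 4 Zic genes described.

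FPKM were used as deposited. The product of FPKM and exon length takes discrete steps, each worth 1 fragment. The library totals under which all steps are whole were 20114827 (Dyrk2-KO) and 20045508 (WT), and all 1148 and 1258 values checked, of at most 100 fragments, were whole within 0.1 fragment. FPKM intervals are exact Poisson, ratio intervals exact Clopper-Pearson, both taken over every fragment count that rounds to the deposited value. No count model was used. Log2 ratios add 0.5 FPKM, and counts by fold cover genes of at least 1 FPKM in a library. Motifs were searched on both strands. The steps were tested on simulated data with known changes.

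The members and lists were chosen with earlier results of these data known. Named genes are Dyrk2, the Zic genes, their neighbours above the filter, the 3 nearest genes to each Zic gene above it, and per list at most the 3 with the largest ratio and the 2 most abundant. Xist, 2610035F20Rik, Lmx1a and members named outside this rule were chosen after their values were seen. One item is not reported here. Python 3.11.15 with scipy 1.17.1 was used.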

Additional observations from a re-analysis of the deposited data

How the results depend on the processing

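No paired analysis was possible because each genotype has a single library, and no library could be left out. An equal addition to both values cannot change the sign of a log2 ratio, and the other scalings were close to 1. The 4 Zic log2 ratios therefore had to stay below 0 under all 5 alternatives run for each, and only their size could change. With 0.1 FPKM added in place of 0.5, they were -1.43 for Zic1, -1.0 for Zic4 and -0.50 for Zic5, beyond their counting intervals around the main values; with 2 FPKM added, they were -0.69 for Zic1, -0.84 for Zic2 and -0.083 for Zic4, so that none of the 4 was 2-fold lower. The addition itself makes this difference, since it is large beside such levels. The other scalings multiplied the Dyrk2-KO values by 0.999 to 1.02. The counts of all genes at least 2-fold lower and higher, 265 and 120, became 83 and 20 with 2 FPKM added, 69 and 17 with a filter of 5 FPKM, 410 and 217 with no filter, and 166 and 60 for genes with at least 200 bases of exon. The medians of 16 lists with at least 3 members above the filter were recomputed, 112 in all. Of these, 108 stayed between the median lower and the median upper counting bound of their members, on the log2 scale with 0.5 FPKM added. The exceptions were 0.38 for the Gli and Glis genes with no filter, and, with a filter of 5 FPKM, -0.090 for reported targets, -0.48 for frontonasal and periocular mesenchyme and -0.27 for oral epithelium, where fewer members remain. Of these, reported targets and oral epithelium have the opposite sign of the main median. Depth limits Zic4 and Zic5 most.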
